A study of Mus musculus with 59 samples.

Results

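In mouse liver, 665 genomic sites carried peaks of BCL6, PPARα and PPARδ in both the fed and the fasted state. They were picked from the 15642 BCL6 peaks of fed liver as those whose centre lay within 200 bp of a peak centre in each of 5 other lists, namely fasted BCL6, fed and fasted PPARα, and fed and fasted PPARδ. The members were thus chosen by the measured peak positions of these 6 lists, so their presence in them is a description and not a result. They made up 4.25% of fed BCL6 peaks.

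BCL6 is a zinc finger repressor first known from germinal centre B cells, which recruits the corepressors SMRT and NCoR and histone deacetylase. PPARα and PPARδ are fatty acid-activated nuclear receptors that bind DNA as heterodimers with RXR, typically at a DR1 element, a direct repeat of the hexamer AGGTCA with a spacer of 1 bp. PPARα is the receptor through which the fasted hepatocyte turns on fatty acid oxidation and ketone body synthesis, and the fed liver keeps much of that program silent.

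The study mapped the factors by chromatin immunoprecipitation and sequencing (ChIP-seq) of livers from male C57BL/6 mice, either wild type and fed ad libitum, or wild type and fasted overnight, with 3 samples for each factor and state. A further BCL6 list came from 3 samples of fed Bcl6 fl/fl mice, which carry floxed Bcl6 alleles without Cre. That list was not used to choose the members. Each of the 7 lists is 1 set of peaks over its 3 samples, first found on the pooled reads and then filtered on the reads of each sample against input. The lists give positions only, without heights or counts, so no value per animal is given and the intervals printed here cover counting error only. Whole liver was used, and the 7 lists alone do not separate sites bound in hepatocytes from those bound in other liver cells. A BCL6 sample of fed liver with Bcl6 knocked out in hepatocytes was not analysed here. The paper found highly similar BCL6 peaks with that sample or with input as the background. It read this as BCL6 binding specific to hepatocytes.

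Taken one by one, the lists of the rule met fed BCL6 peaks to very different extents. A fasted BCL6 centre lay within 200 bp of 7656 fed BCL6 peaks (48.9%), a fed PPARα centre near 10956 (70.0%), a fasted PPARα centre near 10630 (68.0%), a fed PPARδ centre near 4210 (26.9%) and a fasted PPARδ centre near 1001 (6.40%). Applied in turn, the lists left 7656, 6378, 5946, 2773 and then 665 sites, so the fasted PPARδ list, the shortest of the 7 with 2399 peaks, set the final number. The members took up 27.7% of that list (95% Wilson interval 26.0% to 29.5%). They took up 9.07% of the 7328 fed PPARδ peaks, 6.92% of the 9613 fasted BCL6 peaks, 3.11% of the 21410 fed PPARα peaks and 2.29% of the 29085 fasted PPARα peaks. Each member used a different peak of each of these lists.

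At the limit of the rule, the member with the most distant centre lay 107186 bp upstream of Nectin1, with its fasted PPARδ centre 196 bp away. Next came the Fabp1 promoter site at 193 bp and a site 5753 bp upstream of Cnnm4, whose fasted BCL6 centre was 188 bp away. Just outside, a fed BCL6 peak 1763 bp upstream of Myc missed by 1 list, with its fasted PPARδ centre at 201 bp, and a peak 27857 bp upstream of Rfx4 had its fed PPARα centre at 209 bp.

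Comparison classes were drawn from the same list of fed BCL6 peaks. The nearest class held 2108 sites with BCL6 and PPARα in both states and PPARδ in the fed state alone. Another held 3094 sites with BCL6 and PPARα in both states and no PPARδ. The other 9775 fed BCL6 peaks formed the last.

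DR1 matches and the DR1 hexamer were more frequent in the members than in each of these classes, so the matches nearest to the DR1 consensus are shown first. A match was allowed up to 2 mismatches among the 12 fixed bases of AGGTCA, any base, AGGTCA, on either strand. None of the 665 members held a perfect DR1 within 100 bp of the fed BCL6 centre, which allows a share of up to 0.451%. Over the whole list 33 of 15642 peaks (0.211%) held one, a share below that limit. Within 1 mismatch there were 20 members. Of these, 8 with tightly grouped centres, spanning at most 58 bp, are printed, a site 186203 bp downstream of Rplp1 with the same 58 bp being left out. They are written 5′ to 3′ on the strand of the element, from the mm10 reference (GRCm38.p6, RefSeq), with DR1 matches in capitals. Intergenic here means outside the promoters and bodies of curated RefSeq transcripts.
Otulin, 80155 bp downstream of the gene's start, in an intron of another gene, chr15:27550552-27550582, plus strand: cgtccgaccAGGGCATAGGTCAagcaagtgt
Susd1, 1501 bp upstream, intergenic, chr4:59440061-59440091, plus strand: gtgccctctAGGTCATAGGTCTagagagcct
Mycn, 126985 bp downstream, intergenic, chr12:12814742-12814772, minus strand: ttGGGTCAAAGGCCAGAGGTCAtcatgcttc
Dipk2b, 412873 bp upstream, intergenic, chrX:18874285-18874315, plus strand: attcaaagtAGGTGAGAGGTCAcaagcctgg
Rnf24, 44886 bp downstream, intron 3, chr2:131307974-131308004, plus strand: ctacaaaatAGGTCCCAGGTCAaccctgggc
Gtsf1l, 6331 bp upstream, intergenic, chr2:163095855-163095885, minus strand: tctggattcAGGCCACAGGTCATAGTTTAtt
Wrnip1, 22531 bp downstream, intergenic, chr13:32824597-32824627, minus strand: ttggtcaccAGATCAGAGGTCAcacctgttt
Rad23b, 107548 bp upstream, intergenic, chr4:55242502-55242532, minus strand: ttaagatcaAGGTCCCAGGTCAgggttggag
At Mycn and Gtsf1l a further match overlapped, and there the capitals run on.

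Sites with 1 mismatch also lay nearest to 3 genes of fatty acid handling. They were picked for their nearest gene from the 20 members with 1 mismatch. Of all 665 members, 91 were nearest to genes of the 16 groups described below. A link between the DR1 match and the kind of gene was not tested. Fabp1 encodes the liver fatty acid-binding protein, Crot the peroxisomal carnitine octanoyltransferase, and Hadh the mitochondrial hydroxyacyl-CoA dehydrogenase of short-chain substrates.
Fabp1, site 89 bp upstream, promoter, chr6:71199803-71199833, minus strand: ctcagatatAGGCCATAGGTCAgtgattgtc
Crot, site 31524 bp upstream, intergenic, chr5:9028587-9028617, plus strand: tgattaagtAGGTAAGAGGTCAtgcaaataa
Hadh, site 707 bp downstream, intron 1, chr3:131271362-131271392, plus strand: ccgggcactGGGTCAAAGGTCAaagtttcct

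At the member 22916 bp upstream of Bdh1, which encodes the mitochondrial β-hydroxybutyrate dehydrogenase, the 6 centres spanned 28 bp. It is shown in full because it held 2 DR1 matches and a BCL6 element, TTCCTAGAA with 1 mismatch allowed, all in capitals on the plus strand.
Bdh1, intergenic, chr16:31399281-31399480, plus strand: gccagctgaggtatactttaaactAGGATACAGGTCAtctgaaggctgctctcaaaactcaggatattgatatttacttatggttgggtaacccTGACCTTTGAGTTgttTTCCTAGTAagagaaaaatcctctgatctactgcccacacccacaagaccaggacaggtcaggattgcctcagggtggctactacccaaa
A member of Cd36, the fatty acid translocase, 35425 bp upstream and intergenic, held 1 DR1 match with 2 mismatches.
Cd36, chr5:17924284-17924483, plus strand: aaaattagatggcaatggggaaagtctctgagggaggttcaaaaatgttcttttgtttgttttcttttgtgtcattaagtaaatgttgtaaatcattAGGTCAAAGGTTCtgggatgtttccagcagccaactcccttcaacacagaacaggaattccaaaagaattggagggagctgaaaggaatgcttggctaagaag

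Most members had no such letters. The site 4816 bp downstream of the start of Ehhadh, in intron 1, had centres within 15 bp, the smallest span together with a member 134935 bp upstream of Shank2, yet no DR1 within 2 mismatches and no BCL6 element. Ehhadh encodes the peroxisomal bifunctional enzyme of β-oxidation.
Ehhadh, chr16:21782918-21783117, plus strand: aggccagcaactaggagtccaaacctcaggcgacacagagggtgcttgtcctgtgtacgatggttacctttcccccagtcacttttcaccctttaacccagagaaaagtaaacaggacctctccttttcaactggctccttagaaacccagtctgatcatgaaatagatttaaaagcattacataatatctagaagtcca

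Members held DR1 matches more often than the comparison classes. A match lay within the 200-bp window of 139 of the 665 members (20.9%, 95% interval 18.0% to 24.2%). The share was 15.4% (13.9% to 17.0%) where PPARδ was called only in the fed state, 8.82% (7.87% to 9.87%) without PPARδ, 10.0% (9.45% to 10.6%) in the other fed BCL6 peaks and 11% over the whole list. The members exceeded the sites with fed PPARδ alone by 5.48 percentage points (95% Newcombe interval 2.15 to 9.06) and the sites without PPARδ by 12.1 points (8.98 to 15.5). In windows 2000 bp to either side of the members the share was 4.36% (3.39% to 5.60%). The repeat written backwards, which has the same base composition, occurred in 4.21% of members (2.93% to 6.02%) and in 3.01% of the sites without PPARδ. Base composition moved with the classes too. The median G+C content was 46.5% in members, 45.5% with fed PPARδ alone, 44.0% without PPARδ and 43.5% in the rest, and its part in the DR1 difference was not tested beyond the reversed repeat. The part of peak height, which is not in the lists, was not tested either.

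With 1 or with 3 mismatches the members also stood above the sites without PPARδ. A best match of 3 mismatches was found in 245 members (36.8%, 33.3% to 40.6%) against 26.1% (24.6% to 27.7%) of the sites without PPARδ. With at most 1 mismatch the shares were 3.01% and 1.65%, a difference of 1.36 points (0.189 to 3.0), but the sites with fed PPARδ alone reached 2.85%, 0.161 points below the members with an interval of -1.16 to 1.87. The other fed BCL6 peaks reached 2.17%, 0.839 points below the members with an interval of -0.258 to 2.45. A perfect match, in 0 members and 3 of the 3094 sites without PPARδ (0.0970%), was too rare to compare, with a difference of -0.097 points and an interval of -0.285 to 0.481. The single hexamer AGGTCA was present in 40.8% of members (37.1% to 44.5%), in 35.2%, 31.0% and 28.2% of the classes in the order given above, and in 15% of the flanking windows. Repeats of the hexamer at other spacings were less frequent in members than DR1. With no spacer the share was 10.8% (8.69% to 13.4%), with 2 bp 7.97% (6.14% to 10.3%), and with 3 to 8 bp it ranged from 4.81% to 8.12%. The flanks held 1.88% to 5.34% of these other spacings. The excess of the members was not limited to DR1. With 8 bp the share exceeded all 3 classes, by 2.29 points (0.147 to 4.79) over the sites with fed PPARδ alone and by 3.11 points (1.09 to 5.54) over those without PPARδ. With 0, 2 and 7 bp the members exceeded the sites without PPARδ by 3.20, 2.44 and 2.65 points, with intervals above 0, while their intervals against the sites with fed PPARδ alone included 0.

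The BCL6 element did not set the members apart from the other shared sites. It lay in 82 members (12.3%, 10.0% to 15%), against 13.2% with fed PPARδ alone and 11.6% without PPARδ, and the difference from the latter was 0.695 points with an interval of -1.88 to 3.62. The other fed BCL6 peaks held it more often, at 18.3% (17.5% to 19.0%), and members lay 5.92 points below them (interval -8.33 to -3.10). The flanks of the members held it in 8.65% (7.25% to 10.3%) and its reversed letters occurred in 4.06% of members. Both elements were held by 15 members (2.26%), against 1.85% with fed PPARδ alone, 1.16% without PPARδ and 1.48% of the rest. Neither was held by 459 members (69.0%, 65.4% to 72.4%), against 73.2%, 80.7% and 73.2% in the same order.

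TTCCTAGAA was matched without mismatch by 5 members (0.752%) and by 34 of the 3094 sites without PPARδ. The difference was -0.347 points with an interval of -0.957 to 0.697. Of the 5 members, 4 are printed, in the orientation of the element and with it in capitals. The other lay at the start of Cish, 36 bp downstream in exon 1, a suppressor of cytokine signalling that is a known target of STAT5. These 5 were singled out after their values were seen. The Larp1 site is outside the curated transcripts but inside the full annotated bounds of Larp1.
Cd36, 13487 bp upstream of the nearest start, in intron 1 of a longer transcript, chr5:17863200-17863230, plus strand: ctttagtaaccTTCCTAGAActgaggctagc
Larp1, 27423 bp upstream, intergenic, chr11:57981618-57981648, plus strand: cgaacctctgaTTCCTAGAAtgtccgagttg
Trim24, 118943 bp upstream, intergenic, chr6:37751894-37751924, minus strand: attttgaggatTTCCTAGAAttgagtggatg
Adipor2, 10781 bp upstream of the nearest start, intron 1, chr6:119399463-119399493, plus strand: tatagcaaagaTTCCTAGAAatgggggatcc

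DR1 matches gathered at the middle of the members, and the BCL6 element did so less clearly. In bins of 50 bp, DR1 matches peaked in the bin just before the fed BCL6 centre, at 7.82% of members (6.01% to 10.1%), and lay between 0.301% and 1.80% beyond 300 bp. At the sites without PPARδ the same bin held 2.97% (2.43% to 3.63%). For the BCL6 element the highest bin held 5.41% of members (3.94% to 7.4%) and 3.91% of sites without PPARδ (3.28% to 4.65%), over 1.20% to 3.01% and 1.45% to 2.52% farther out. That was again the bin just before the centre, and the bin just after it held 3.16% of members (2.07% to 4.78%). The profiles of the 2 elements show this.

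**Figure D1:**
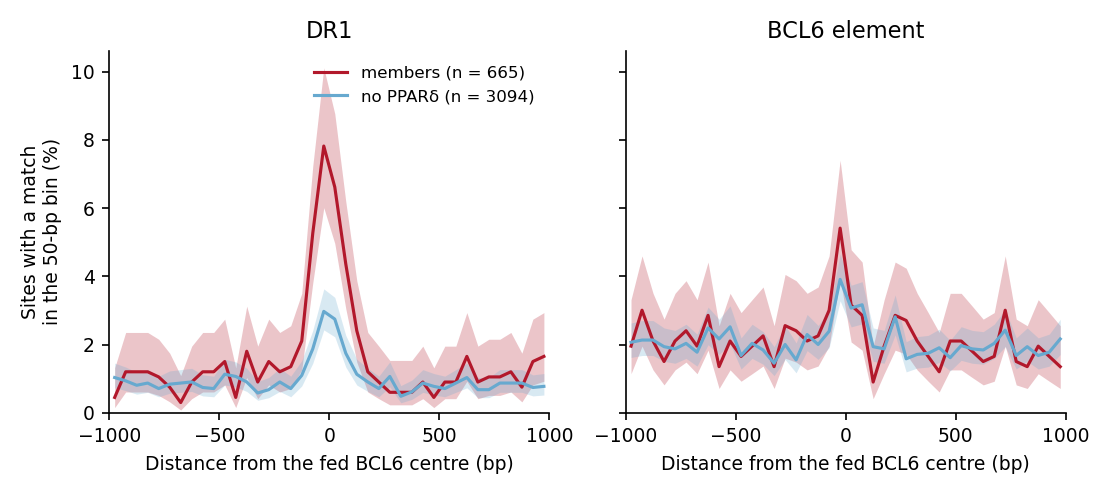
Share of sites with a match in each 50-bp bin (y axis, %) by distance from the fed BCL6 centre (x axis, bp), for members (red) and for constant BCL6-PPARα sites without PPARδ (blue); bands are 95% Wilson intervals. The DR1 curve of the members rises to 7.82% against 2.97%, while the BCL6 element bands overlap.

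Elements of other hepatocyte factors were present at the members but differed less from class to class than DR1. The HNF4 element CAAAGTCCA with up to 1 mismatch, which shares letters with DR1, lay in 20.0% of members (17.1% to 23.2%), in 23.2% with fed PPARδ alone and in 21.8% without PPARδ, against 6.84% of flanks. The difference of members from the sites without PPARδ was -1.75 points (-4.98 to 1.76). The C/EBP element TTGCGCAA with up to 1 mismatch lay in 16.8% (14.2% to 19.9%), in 13.5%, 14.3% and 10.1% of the 3 classes, and in 2.41% of flanks, and members exceeded the sites with fed PPARδ alone by 3.37 points (0.311 to 6.71). The FOXA letters TGTTTAC were found in 9.32% of members and 11.3% of the sites without PPARδ, and the HNF6 letters TATTGAT in 11.1% and 9.73%, with 3.01% and 2.48% in the flanks.

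**Figure D2:**
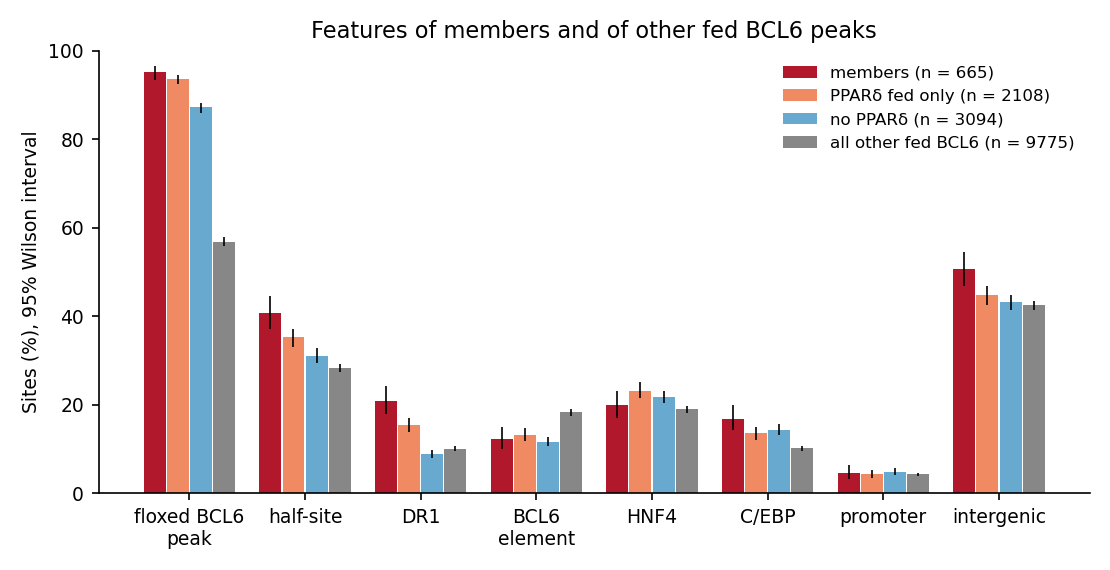
Share of sites with each feature (y axis, %) in the members and the 3 classes of other fed BCL6 peaks; bars are shares and lines 95% Wilson intervals. DR1 stands at 20.9% in members against 15.4%, 8.82% and 10.0%, and floxed BCL6 at 95.2% against 93.6%, 87.2% and 56.8%.

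The BCL6 peak at the members was found again in the floxed animals at nearly every site. A fed Bcl6 fl/fl BCL6 centre lay within 200 bp of 633 members (95.2%, 93.3% to 96.6%), of 93.6% of the sites with fed PPARδ alone, of 87.2% without PPARδ and of 56.8% of the other fed BCL6 peaks, where 69.4% of the whole list did so. The members exceeded the sites without PPARδ by 7.99 points (5.77 to 9.83). The difference from the sites with fed PPARδ alone, 1.54 points, had an interval of -0.588 to 3.33. Peak height is not in the lists, and its part in these shares was not tested. The 32 members without a floxed peak lay nearest to 31 genes, among them Cd36 with 2 sites, the monocarboxylate transporter gene Slc16a1, and Gpam and Mogat1 of triglyceride synthesis. Of these 32, 12 held a DR1 match.

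The 6 centres lay close together within each member, more so than the rule required. From the fed BCL6 centre, the median distance was 22 bp to fasted BCL6 (quartiles 11 and 42), 23 bp to fed PPARα, 25 bp to fasted PPARα, 25 bp to fed PPARδ and 31 bp to fasted PPARδ (14 and 54). The floxed BCL6 centre was 18 bp away (8 and 31) over the 633 sites that had one. The whole span of the 6 centres had a median of 67 bp (quartiles 48 and 90), was within 100 bp at 534 members (80.3%) and over 200 bp at 9. The rule caps each distance from fed BCL6 at 200 bp, so these are descriptions. Between the states, the median distance was 22 bp for BCL6, 18 bp for PPARα and 22 bp for PPARδ. Between the factors it was 22 bp from fed PPARα to fed PPARδ and 24 bp in the fasted lists, and 35 bp from fasted BCL6 to either PPARδ list. The fed PPARδ centre was nearer to the fed PPARα than to the fed BCL6 centre at 388 members (58.3%, 54.6% to 62.0%), and in the fasted lists at 431 (64.8%, 61.1% to 68.3%).

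**Figure D3:**
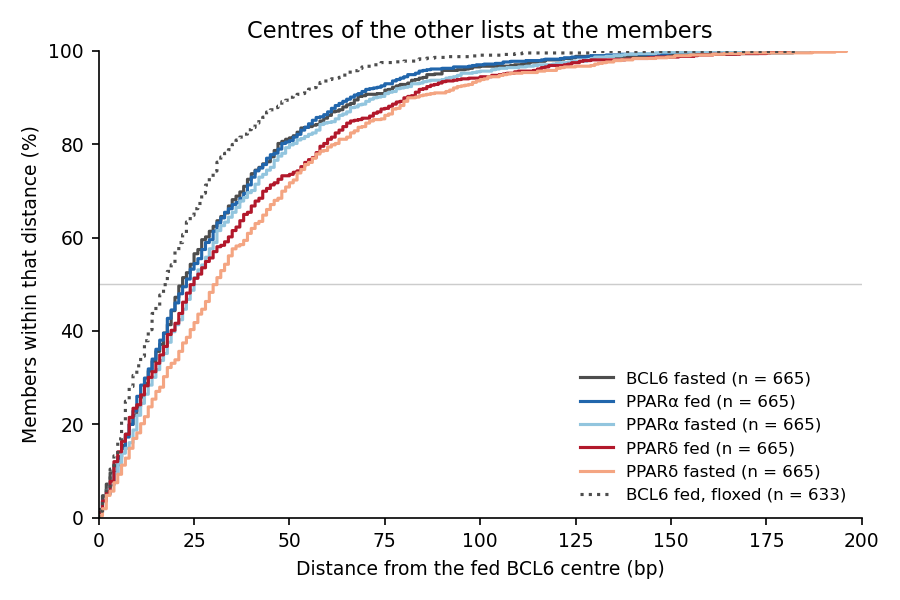
Cumulative share of members (y axis, %) whose centre in each other list lies within a given distance of the fed BCL6 centre (x axis, bp); the dotted line is the floxed BCL6 list. The curves reach 50% between 18 bp for floxed BCL6 and 31 bp for fasted PPARδ.

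The centres sorted by factor around the elements. In the 178 members with a DR1 match within 150 bp of the mean of the 6 centres, the match lay a median of 32 bp from the fed PPARδ centre (quartiles 18 and 62.8) and 39.5 bp from fed PPARα, but 48.5 bp from fed BCL6 (23 and 88) and 52 bp from fasted BCL6. Around the BCL6 element, at 99 members, the order was the other way. The element was 48 bp from the fed BCL6 centre and 48 bp from the floxed one, but 72 bp from fed PPARα and 68 bp from fed PPARδ. Searched around the midpoint of the fed BCL6 and fed PPARα centres, which favours neither, the DR1 match was nearer to PPARα at 107 of 177 members (60.5%, 53.1% to 67.4%) and the BCL6 element at 36 of 101 (35.6%, 27% to 45.4%). These shares differed by 24.8 points (12.6 to 35.9). With PPARδ in place of PPARα they were 59.6% and 35.7%, a difference of 23.8 points (11.5 to 35.0). The pattern was not shown to be particular to the members. At sites without PPARδ the DR1 match was nearer to PPARα in 52.9% (47.6% to 58.1%), 7.55 points below the members with an interval for the difference of -1.47 to 16.2.

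Members lay outside curated transcripts more often than other fed BCL6 peaks. Some of these intergenic members were still inside the full annotated bounds of a gene, as at Larp1 and Shank2. The centre was intergenic at 337 members (50.7%, 46.9% to 54.5%), against 44.7% with fed PPARδ alone, 43.2% without PPARδ and 42.5% of the rest, and the difference from the sites without PPARδ was 7.50 points (3.32 to 11.7). Introns held 284 members (42.7%) against 48.7%, 49.6% and 50.7%. Promoters (1000 bp before a start and the 100 bp after it) held 30 (4.51%, 3.18% to 6.37%) and exons 14 (2.11%). The promoter share differed from that of the sites without PPARδ by -0.272 points with an interval of -1.83 to 1.71. The nearest start of a protein-coding gene was at a median of 22252 bp in members (quartiles 8181 and 68442) at 23737 bp with fed PPARδ alone and at 26085 bp in sites without PPARδ. Members had a median of 3 other fed BCL6 peaks within 50 kb, and 65 (9.77%) had none. The sites with fed PPARδ alone were close to this, with the same median and 10.8%, while 14.9% of the sites without PPARδ and 25.4% of the rest had none. Repeat-masked sequence covered 8.48% of the members' windows against 10.1%, 11.5% and 13.2% in the classes.

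Chromosome Y held only 2 fed BCL6 peaks and no member. On the other chromosomes, members ranged from 2.46% of fed BCL6 peaks on chromosome X (6 sites, 1.13% to 5.26%) to 5.90% on chromosome 17 (31 sites, 4.19% to 8.26%). Chromosome 4 had the most, with 59. Runs were few. With a gap of up to 10 kb, 77 members fell into 36 groups, and with 50 kb 182 fell into 84 groups of at most 4.

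The 665 members were nearest to 564 of 21000 protein-coding genes (2.69%), where 6087 genes (29.0%) were nearest to at least 1 fed BCL6 peak. One member was counted at 480 genes, 2 at 70 and 3 or more at 14. Nearest in distance does not show that a gene is regulated from the site.

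Nr2f2, which encodes the orphan nuclear receptor COUP-TFII, had the most members, with 5 of its 19 fed BCL6 peaks. There were 4 that lay between 148951 and 158878 bp upstream of the gene, at chr7:70515589-70515805, chr7:70524316-70524532, chr7:70524855-70525071 and chr7:70525516-70525732. The last 3 of these lay within 1200 bp of each other, and 1 more member was 432730 bp upstream. Within 300 kb of its start, all 4 fasted PPARδ peaks and 4 of 5 fed PPARδ peaks were at members, against 4 of 13 fed BCL6 peaks. Each member has a peak of both PPARδ lists by the rule, and the gene was named for its many members. Over the whole lists, 27.7% of fasted and 9.07% of fed PPARδ peaks were at members.

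Acsl1, which encodes the acyl-CoA synthetase that activates long-chain fatty acids in liver, had 4 members among 12 fed BCL6 peaks. At the site 85023 bp upstream, chr8:46385906-46386122, the other centres lay at -11 bp for fasted BCL6, 27 bp for fed PPARα, -9 bp for fasted PPARα, 9 bp for fed PPARδ and 16 bp for fasted PPARδ along the chromosome. At the site 83845 bp upstream, chr8:46387084-46387300, they lay at 19, 16, 25, -7 and -21 bp in the same order. Another was 66636 bp upstream, and the last, chr8:46485035-46485251, in intron 1, had a span of 43 bp. All 4 had a floxed BCL6 peak. A further member in the same stretch was nearer to Helt. Within 110 kb of the start of Acsl1, the 5 fasted PPARδ peaks were all at members, as were 5 of 14 fed PPARδ peaks, 5 of 15 fed BCL6 peaks and 5 of 22 fasted PPARα peaks. Here too the rule puts a fasted PPARδ peak at every member, and the gene was named for its many members.

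Cd36 had 3 members among 6 fed BCL6 peaks. At the one 13487 bp upstream of the nearest start, all 5 other centres lay between 20 and 25 bp to the same side, and a floxed peak was present. The members at chr5:17876766-17876982, in intron 1, and 35425 bp upstream had no floxed peak. Within 50 kb of the gene's outermost annotated start, 3 of 4 fasted PPARδ peaks, 3 of 4 fed PPARδ peaks, all 3 fasted BCL6 peaks and 3 of 7 fasted PPARα peaks were at members. The same limits as at Nr2f2 and Acsl1 apply to these counts.

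**Figure D4:**
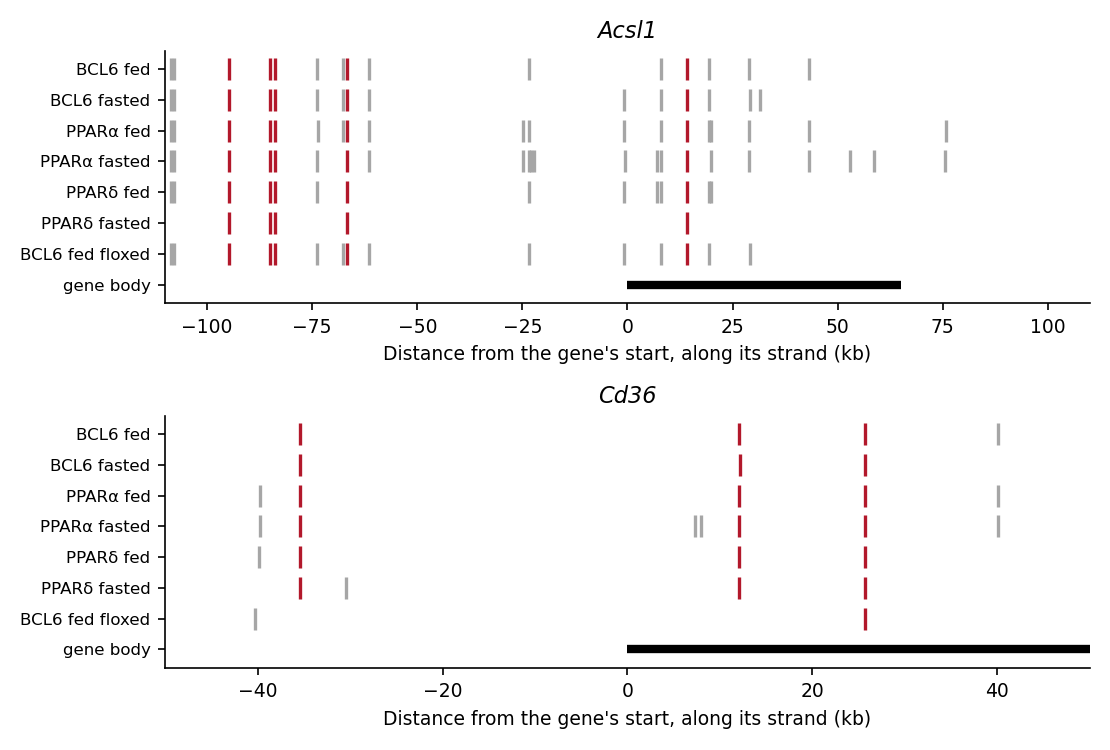
Peak centres of the 7 lists (rows) by distance from the start of Acsl1 and of Cd36 along the gene's strand (x axis, kb); red marks belong to members, grey marks are other peaks, black bars are gene bodies. The fasted PPARδ peaks in these windows are at members in 5 of 5 cases at Acsl1 and 3 of 4 at Cd36. By the rule every member has a fasted PPARδ peak, both genes were named for their many members, and 27.7% of that whole list was at members.

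Crot had 3 members within 5995 bp of each other, Fabp1 had 3, at 14487, 10138 and 89 bp upstream, and Ahcy, Ackr2, Gadd45g and Lacc1 had 3 each. Mtus1, Myc, Rplp1 and Txnip tied with them. At the Fabp1 promoter, fed BCL6, fasted BCL6 and the PPARα centres lay within 34 bp, with fed PPARδ at 43 bp and fasted PPARδ at 193 bp.

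Across 16 gene groups of hepatic metabolism and its regulators, 64 of 265 genes were nearest to a member, against 564 of all 21000 protein-coding genes (2.69%). Of the 265 genes, 200 were nearest to a fed BCL6 peak, against 29.0% of all protein-coding genes. The fed BCL6 peaks of these groups numbered 926, of which 91 were members (9.83%, 8.07% to 11.9%), where 4.25% of all fed BCL6 peaks were members. In 3 comparison groups, of ribosomal proteins, respiratory complex I and skeletal muscle genes, 1 of 16 fed BCL6 peaks was a member (6.25%, 1.11% to 28.3%), near Ndufb3. That interval includes both 4.25% and 9.83%, so these few peaks cannot show a difference from the 16 groups. Part of these groups was drawn from genes the study discusses, so the shares are not independent evidence.

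Fatty acid transport and the carnitine shuttle had the most. Members were nearest to 8 of 22 genes and made up 19 of 60 fed BCL6 peaks (31.7%, 21.3% to 44.2%). Beside Acsl1, Cd36, Crot and Fabp1 these were the carnitine palmitoyltransferase gene Cpt2 (1), the carnitine transporter gene Slc22a5 (2), the fatty acid transporter and acyl-CoA synthetase gene Slc27a2 (2) and the medium-chain acyl-CoA synthetase gene Acsm1 (1). Among the 36 peaks of these genes with BCL6 and PPARα in both states, 52.8% were members. Over the whole list, 665 of 5946 such peaks were members. The group's share does not come from 1 gene, but Acsl1, Cd36, Crot and Fabp1 held 13 of the 19 sites.

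Ketone body genes followed, with 7 of 34 peaks (20.6%, 10.3% to 36.8%) at 4 of 10 genes. Bdh1 had 2, and the acetyl-CoA acetyltransferase gene Acat1 had 1. At the promoter of Bdh1, 58 bp upstream, the centres spanned 73 bp.

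The hepatokines and regulators of lipoprotein lipase had 6 of 34 (17.6%, 8.35% to 33.5%). Fgf21, the fasting hormone of the liver, had 1 member 4393 bp downstream of its start, with fed and fasted PPARδ centres at -138 and -151 bp and a span of 151 bp. Angptl8, Igfbp1 and the hepatic lipase gene Lipc also had members. Genes of the lipid droplet and lipolysis had 5 of 31 (16.1%, 7.09% to 32.6%), at Plin2, Pnpla3, G0s2 and Mgll.

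The oxidation enzymes themselves had lower shares than the groups above, though not below that of all fed BCL6 peaks. Mitochondrial β-oxidation had 3 of 38 peaks (7.89%, 2.72% to 20.8%), at Hadhb, Hadh and Decr1. Peroxisomal β-oxidation had 4 of 55 (7.27%, 2.86% to 17.3%), at Acox2, Ehhadh, Acaa1b and Decr2. Microsomal ω-oxidation had 3 of 34 (8.82%, 3.05% to 23.0%), at Cyp4a10, Cyp4a32 and Aldh3a2. The acyl-CoA thioesterases had 2 of 21 (9.52%, 2.65% to 28.9%), at Acot1 and Acot4. These intervals include the 4.25% of all fed BCL6 peaks. They also overlap those of the ketone body, hepatokine and lipid droplet groups.

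Among genes of other routes, lipogenesis and triglyceride synthesis had 7 of 65 peaks (10.8%, 5.32% to 20.6%), at Elovl6, Fads1, Fads2, Gpam and Mogat1. Gluconeogenesis and fuel switching had 9 of 87 (10.3%, 5.54% to 18.5%), at Foxo1, Foxo3, Gpt2, Pck1, Pdk4 and Sik1. A mixed group of vanin, fatty acid conjugation, bile acid synthesis and other genes had 5 of 43 (11.6%, 5.07% to 24.5%). There were 2 of these at Cyp7a1, the rate-limiting enzyme of bile acid synthesis. Nuclear receptor genes had 11 of 133 (8.27%, 4.68% to 14.2%), of which Nr2f2 held 5. Ppara and its partner Rxra had 1 each, the former in intron 2 at chr15:85742661-85742877.

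The group of BCL6, corepressors and related zinc finger genes had 4 of 100 (4.00%, 1.57% to 9.84%), 1 of them 55037 bp upstream of Bcl6. Insulin and growth hormone signalling genes had 5 of 133 (3.76%, 1.62% to 8.50%) and genes of uncoupling and the tricarboxylic acid cycle 1 of 17. Circadian clock genes had none. Of 17, 14 were nearest to a fed BCL6 peak, with 41 peaks in all and 16 that carried BCL6 and PPARα in both states, and 0 of 41 allows a share of up to 7.32%, which includes that of all fed BCL6 peaks.

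**Figure D5:**
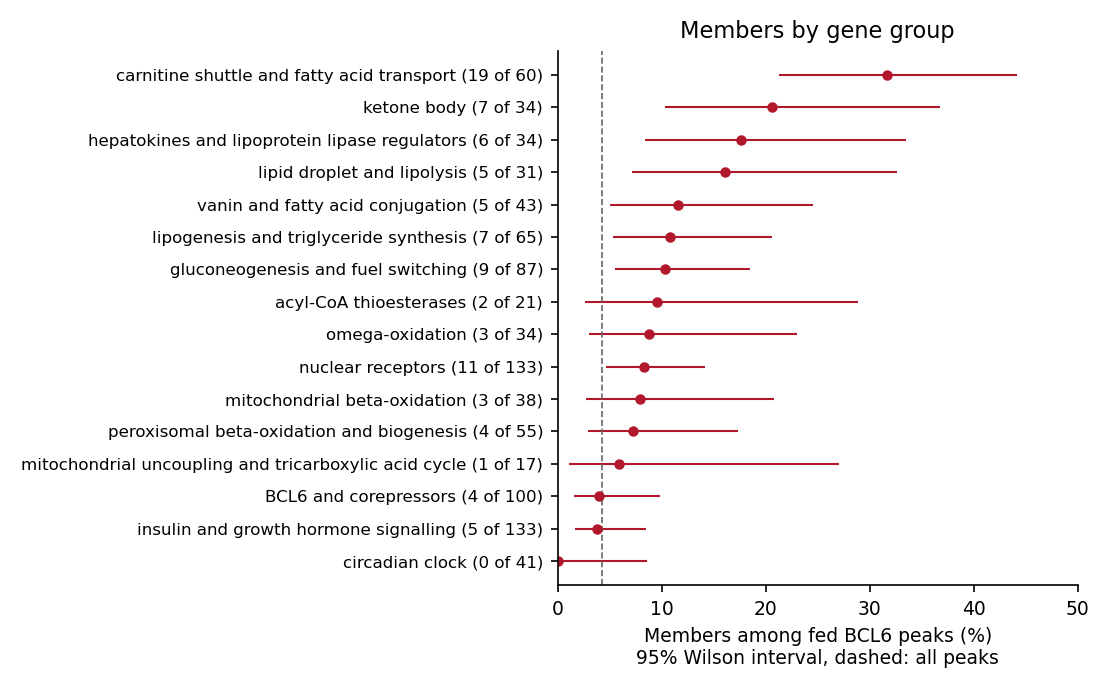
Share of each gene group's fed BCL6 peaks that were members (x axis, %), with 95% Wilson intervals; counts stand beside the names, and the dashed line marks the 4.25% of all fed BCL6 peaks. Fatty acid transport lies highest at 31.7% and clock genes lowest at 0 of 41.

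Regions had also been tested by ChIP-qPCR, picked with these maps at hand. Exact matches of the primer pairs placed 15 such regions, each at a single position in the reference, and all 15 lay within 200 bp of a fed BCL6 centre. Members made up 7 of them, including regions at Acot4, Bdh1, Cd36, Ehhadh and Fads2. Another 6, at Abhd2, Acot2, Acot4, Cyp4a31, Idh2 and Por, lost the PPARδ call on fasting, 1 at Acot3 had no PPARδ call, and 1 at Angptl4 lacked a fasted BCL6 peak while it had the other 5. Of the 2 regions of Acot4, the upstream one, chr12:84033026-84033140, was a member and the other, chr12:84042445-84042528, was not. Abhd2 had a member elsewhere, 24978 bp upstream.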

How the data were processed

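Livers of male C57BL/6 mice were profiled by ChIP-seq. Reads were mapped by the authors with Bowtie to mm10, with 1 read kept per position. The authors found initial peaks with HOMER on 3 pooled samples against input. They then kept peaks that passed 2-fold enrichment and a false discovery rate of 0.05 in DESeq2, run by the authors on the counts of each sample. The deposited peak lists hold positions only, so sequencing depth is unknown here and weakly bound sites may be missing from short lists. No count model could be run.

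Centres were taken as interval midpoints, and 200 bp was the shared distance, as in the study. Windows of 200 bp were searched on both strands in GRCm38.p6, and genes came from 45756 curated RefSeq transcripts. Shares carry 95% Wilson intervals and their differences 95% Newcombe intervals. No p-value was computed, since sites are not replicates. Where a count is 0, 3 counts set the upper limit. Scripts (Python 3.11.15, NumPy 2.4.6) were tested on simulated data.

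The members, gene groups and elements were chosen with earlier results of these data known. Genes named were those of the groups nearest to a member, the 10 with most members, and those with a ChIP-qPCR region. Sequences shown came from the members with fewest DR1 mismatches, those with an exact BCL6 element and those near the ChIP-qPCR genes. The other samples of the series were not analysed here. A few genes of the groups are not reported here.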

Additional observations from a re-analysis of the deposited data

How the results depend on the processing

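Of 67 alternative values, 57 stayed within the interval of the reported value or, for counts, within 1.5 times it. No difference from the sites without PPARδ changed sign where its interval excluded 0. Differences from the other classes were not computed under the alternatives. The count of members ran from 578 at a shared distance of 100 bp to 688 at 400 bp, and was 682 with the floxed list as the anchor. Genes with a member ran from 487 to 598. The element shares that moved did so with a smaller window or a stricter match, which admit fewer matches by construction. The DR1 share of members was 5.56% in windows of 50 bp, 12.8% in 100 bp and 3.01% with 1 mismatch fewer, and its excess over the sites without PPARδ was then 3.3, 7.77 and 1.36 points, with intervals of 1.69 to 5.37, 5.30 to 10.6 and 0.189 to 3.0. The BCL6 element share was 3.31%, 7.37% and 0.752% under the same settings. The promoter share rose to 13.1% with promoters of 5000 bp upstream to 1000 bp downstream, a definition that admits more sites. Centred on fed PPARα, the DR1 share was 23.9% and the excess 14.6 points. No paired analysis was possible because each list is a single set of peaks over its 3 samples.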
